A study of Rattus norvegicus with 241 samples.

Results

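The expression of 10 genes of the Notch pathway was followed through every bulk and single-cell table of a study of short-term TGFβ receptor inhibition in the rat mammary gland. The members were taken by symbol, ignoring case, as 4 receptors (NOTCH1, NOTCH2, NOTCH3 and NOTCH4), 3 ligands (JAG1, JAG2 and DLL1) and 3 target genes (HES1, HEY1 and HEYL). They are 10 of the 16820 gene symbols listed across the bulk tables. JAG2 was listed only in the adult and estradiol bulk tables and in the single-cell tables, and HEY1 was not listed for CD45+ cells of tumors. Every listed member passed the filter on low values in every bulk table.

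Notch receptors are single-pass membrane proteins that are activated by ligands on neighbouring cells. Ligand binding lets ADAM proteases and then γ-secretase cut the receptor, and the freed intracellular domain joins the DNA-binding protein RBPJ and a Mastermind coactivator to switch on HES and HEY repressor genes. In the mammary gland, Notch signaling is known for promoting the luminal fate, whereas basal (myoepithelial) cells are known as a source of ligand, and in blood vessels NOTCH3 is known from mural cells and NOTCH4 from endothelium.

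The study had 241 samples in 69 groups, 202 from bulk RNA sequencing of sorted cells and 39 from single-cell RNA sequencing. All rats were female and of the inbred ACI or the outbred Sprague Dawley (SD) strain, and received by gavage either vehicle or TGFBRi, the TGFBR1 kinase inhibitor LY2157299 (galunisertib), at 75 mg/kg 2 times daily for 10 days unless stated otherwise. Basal cells were sorted as CD31-CD45-CD24+CD29high, luminal cells as CD31-CD45-CD24+CD29low, and leukocytes as CD45+. Young ACI rats were dosed from about 35 days of age and killed 0, 7 or 14 days after the last dose, with 3 rats per group. Young SD rats were dosed from about 24 days of age and killed at day 0, with 4 rats per group. Adult ACI rats, virgin or parous and 18 to 24 weeks old, were killed at day 0, with 4 rats per group for basal and luminal cells and 2 to 4 for CD45+ cells. In the carcinogen experiment, SD rats were dosed from 21 days of age and then injected 1 time with N-nitroso-N-methylurea (NMU, 50 mg/kg), and glands were taken 87 days later from tumor-bearing vehicle, tumor-bearing TGFBRi and tumor-free TGFBRi rats, 3 of each, with EPCAM+ and CD45+ cells of tumors from 3 vehicle and 3 TGFBRi rats. No NMU gland came from a tumor-free vehicle rat. In the estradiol (E2) experiment, ACI rats were dosed for 21 days from 38 days of age, given an E2 or an air implant and killed when the tumor experiment ended, with 2 to 4 rats per group of luminal or CD45+ cells. Among the sequenced rats, all vehicle rats with E2 bore tumors, TGFBRi rats with E2 were tumor-bearing or tumor-free, and no rat without E2 bore a tumor. Single cells came from sorted basal and luminal cells of ACI rats (3 per arm), the same sorts of SD rats (3 vehicle, 6 TGFBRi) and whole SD glands (3 vehicle, 6 TGFBRi), for which the labels used here gave no age. The paper describes the rats of the sorts as peripubertal and taken right after the 10 days of dosing (day 0). It describes the whole-gland experiment as a repeat, and all single-cell samples are read here as day 0.

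In bulk data a value is a normalized read count, a gene's reads divided by the size factor of its library, and library depth ran from 4194912 to 52314784 reads. Groups were compared on log2(value + 1) with limma, and a gene was called at a Benjamini-Hochberg adjusted p of at most 0.05 over all genes tested. In single-cell data a value is in CPM, the unique molecular identifiers (UMIs) of a gene scaled to the total after the cells of a rat were summed, and groups were compared with edgeR's quasi-likelihood test, called at an adjusted p of at most 0.1, the level the study used for these data. Bulk log2 changes understate the change of low genes because of the added 1. In sorted bulk cells, fewer cells of a type and less RNA per cell cannot be told apart.

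Some libraries stood apart. A gene-span index was computed per library as the median log2 deviation of genes spanning at least 50 kb minus that of genes under 5 kb. It fell below -1 in 8 samples of 5 ACI rats (-2.159 to -1.005) and lay between -0.954 and 1.266 in the others. Of these 8 samples, 7 were basal or luminal samples of young rats at day 7 or 14 and 1 was a CD45+ sample of an adult virgin TGFBRi rat. Basal NOTCH2 was 276 to 502 in those basal libraries and 888 to 4347 in the other basal libraries of young ACI rats. The sorted basal cells of young SD vehicle rats also held fibroblast transcripts, with a summed value of 371747 to 594912 over 7 fibroblast markers against 117091 to 153563 over 8 basal markers.

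The promoters of HES1, a transcriptional repressor and the best known Notch target, and of DLL1, a ligand, are shown because these 2 members differed in opposite directions between the epithelial lineages. RefSeq (GRCr8) gives them as 250 bases before and 50 after the start of the gene, printed 5′ to 3′ on the gene's strand, for HES1 at chr11:84212996-84213295 (minus strand) and for DLL1 at chr1:64993225-64993524 (minus strand). Capitals mark the letters TGGGAA, the core of the RBPJ binding motif, or TTCCCA, the same letters on the other strand.
HES1: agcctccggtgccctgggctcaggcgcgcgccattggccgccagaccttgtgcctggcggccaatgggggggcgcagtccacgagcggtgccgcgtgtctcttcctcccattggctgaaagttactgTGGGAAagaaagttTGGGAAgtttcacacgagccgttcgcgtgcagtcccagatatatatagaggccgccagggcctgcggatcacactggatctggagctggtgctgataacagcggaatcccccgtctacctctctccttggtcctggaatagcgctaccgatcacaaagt
DLL1: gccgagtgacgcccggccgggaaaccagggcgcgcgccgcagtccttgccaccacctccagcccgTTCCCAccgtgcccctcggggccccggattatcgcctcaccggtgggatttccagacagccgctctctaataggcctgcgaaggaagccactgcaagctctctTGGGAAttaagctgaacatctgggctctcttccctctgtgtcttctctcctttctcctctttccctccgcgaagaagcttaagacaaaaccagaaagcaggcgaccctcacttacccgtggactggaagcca
With positions counted from 1 at the 5′ end of the window, HES1 held TGGGAA at positions 128 and 142, and DLL1 held TTCCCA at 66 and TGGGAA at 169. Of the 9 members with an entry, 4 held these letters: HES1, DLL1, NOTCH3 at position 293 and NOTCH4 at positions 5 and 158. JAG1, JAG2, NOTCH1, NOTCH2 and HEYL held none, and HEY1 had no entry. The letters were found in 25.7% of all 33469 promoters in the same window, so a match is a description of the sequence only.

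Whole SD glands of vehicle rats gave the level of each member in 13 cell classes, named by marker genes after clustering the cells without the members. NOTCH3 led in mural-like cells, the pericytes and smooth muscle of vessels, with 200, 212 and 344 CPM in the 3 vehicle rats. The next classes were far lower, mature luminal-like cells at 19.5 ± 3.51 CPM and luminal progenitor-like cells at 16.5 ± 1.55 CPM (SD, n = 3), which did not differ beyond their spread. HEYL, a repressor of the HES and HEY family, followed the same leading class, with 33.6, 50.2 and 56.5 CPM in mural-like cells and 4.79 CPM in luminal progenitor-like cells, the next. NOTCH4 led in blood endothelium-like cells at 30.5, 35.7 and 72.9 CPM, ahead of Schwann-like cells at a mean of 12.9 CPM. HEY1, a repressor expressed in endothelium, was highest there too, but with 5.66, 5.92 and 32.6 CPM its 3 rats spanned the mean of 7.95 CPM in Schwann-like cells.

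The ligands had the basal-like class at the top. DLL1 was 207 ± 57.3 CPM in basal-like cells, 110 ± 6.42 in blood endothelium-like cells, 65.4 in NK-like cells and 51.8 in lymphatic endothelium-like cells (SD, n = 3). JAG2 was 35.1 ± 3.49 CPM in basal-like cells and about 10 in both blood endothelium-like (10.2) and NK-like cells (10.1). JAG1 was 141 ± 38.7 CPM in basal-like cells and 83.4 ± 28.0 in mature luminal-like cells, followed by lymphatic endothelium-like (71.1), neutrophil-like (65.5) and mural-like cells (61.5), neighbours that did not differ beyond their spread.

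NOTCH1, the receptor best known from T cells and endothelium, was 167 ± 28.9 CPM in mature luminal-like cells, 119 ± 13.9 in blood endothelium-like, 110 ± 17.5 in lymphatic endothelium-like and 87.5 in T cell-like cells. NOTCH2 was 95.4 ± 18.4 CPM in neutrophil-like, 77.1 ± 34.1 in fibroblast-like and 70.6 ± 9.99 in basal-like cells, which did not differ beyond their spread. HES1 was 184 ± 50.8 CPM in mature luminal-like and 123 ± 45.95 in luminal progenitor-like cells. Mural-like (115), basal-like (111) and lymphatic endothelium-like cells (100.7) were within the spread of luminal progenitor-like cells. Free RNA also gives UMIs to cells that do not express a gene, and its part in low levels was not tested.

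**Figure D1:**
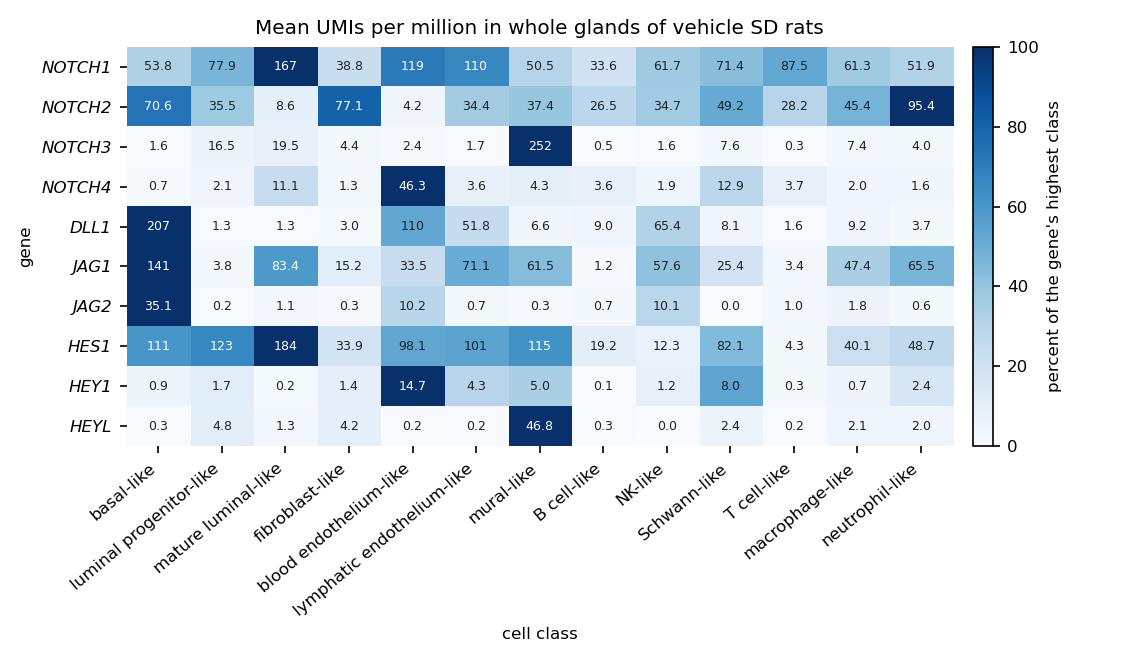
Mean level of the 10 members (CPM) in each of 13 cell classes of whole SD glands of 3 vehicle rats, printed in each cell, with the colour giving the percentage of that gene's highest class. NOTCH3 and HEYL peaked in mural-like cells, NOTCH4 and HEY1 in blood endothelium-like cells, and the 3 ligands in basal-like cells.

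The genes whose class pattern was most like a member's were ranked over the 13 classes among 5972 genes by Pearson's r. Vehicle and TGFBRi rats were summed for this ranking, so it does not describe vehicle glands alone. The ranking is a description, since all classes of a rat share a library. HES1 was closest to KCMF1 (r = 0.96) and RAB9A (0.95), HEYL to XIRP1 (0.95) and UGP2 (0.90), and HEY1 to BCR (0.92). NOTCH3 was closest to SPINK8 (0.87) and MLF1 (0.85), NOTCH4 to TMEM45B (0.84), NOTCH1 to DTX3L (0.81) and NOTCH2 to MCUB (0.73). Among the ligands, JAG1 was closest to GNG12 (0.86), DLL1 to UBQLN2 (0.84) and JAG2 to GSTP1 (0.74).

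Basal and luminal sorts of vehicle rats were then compared to learn how ligands, receptors and targets divide between the 2 sorts. In young ACI rats 3 of 9 members were called, 1 higher and 2 lower in basal cells, while 20.5% of all genes were called. The median log2 difference, basal minus luminal, was -0.64 over the members and 0.21 over all genes. With the rat as a block, since the labels tie both sorts to the same animal, 5 members were called. In young SD rats 5 of 9 were called, 2 higher and 3 lower in basal cells (40.9% of all genes, medians -0.66 and 0.02). The fibroblast marker sum of these SD basal libraries lay above their basal marker sum, as given above. The part of fibroblast RNA in the young SD differences here and below was not tested. In NMU glands of vehicle rats 2 of 9 were called, 1 higher and 1 lower (27.3% of all genes, medians 0.25 and -0.27), and 3 with the block. The shares of all genes given here are those without the block. Those with the block are not given, so calls made with the block alone have no background beside them.

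DLL1 was the member with the widest gap in each of the 3 bulk comparisons. In young ACI rats it was 6469, 7697 and 5830 in basal and 62.7, 67.1 and 47.3 in luminal cells, and in young SD rats 483, 692, 865 and 1490 against 113, 13.7, 0 and 12.1. In NMU glands it was 2136, 2789 and 2230 against 60.04, 81.98 and 138. No luminal library reached a basal library in any of the 3 data sets, and the log2 differences were 6.80 (SE 0.70, limma adjusted p = 1.6e-08), 6.06 (SE 1.00, adjusted p = 1.6e-05) and 4.73 (SE 1.15, adjusted p = 0.0024). JAG1, a ligand of the Jagged family, was 2853, 2135 and 2661 in ACI basal and 598, 600 and 380 in ACI luminal cells, with no overlap, yet its log2 difference of 2.30 was not called without the block (limma adjusted p = 0.067) and was with it (0.00039). In young SD rats JAG1 was 440, 795, 816 and 601 in basal and 61.6, 238, 294 and 421 in luminal cells, a called log2 difference of 1.63 (SE 0.49, adjusted p = 0.0073) without overlap. Without the luminal library of rat C6N, the lowest of the 4, the difference was 1.06 (adjusted p = 0.069). In NMU glands JAG1 was 456, 336 and 340 against 304, 145 and 58.8, a log2 difference of 1.44 that was called with the block alone (limma adjusted p = 0.056 without it and 0.032 with it).

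HES1 ran the other way. In young ACI rats it was 6870, 9189 and 5315 in basal and 12300, 16849 and 15626 in luminal cells, a log2 difference of -1.09 just outside the threshold (limma adjusted p = 0.0502, and 0.0012 with the block). In young SD rats it was 5616, 5358, 5938 and 4818 against 5868, 19394, 31725 and 21122, lower in basal cells by a called -1.62 (SE 0.43, adjusted p = 0.0028) with 1 luminal rat inside the basal range. In NMU glands it was 2861, 3250 and 3488 against 35686, 14440 and 10553, without overlap, a called log2 difference of -2.46 (SE 0.50, adjusted p = 0.00032).

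HEYL was 3.43, 18.8 and 87.8 in basal and 102.6, 101.3 and 114 in luminal cells of young ACI rats, a called log2 difference of -2.43 (SE 0.84, limma adjusted p = 0.038) without overlap. That call was lost in 5 of 6 fits that left out a library, with -1.35 and an adjusted p of 0.34 without the basal library of rat LD3L. The other losses were without the luminal library of LD3L (-2.45, adjusted p = 0.082), LD3R (-2.46, 0.085) or LD4R (-2.38, 0.098) or the basal library of LD3R (-2.43, 0.081), and edgeR on reads gave an adjusted p of 0.19. In young SD rats HEYL was 179, 148, 200 and 111 against 732, 527, 257 and 583, a called -1.65 (adjusted p = 0.021) that was lost without the luminal library of rat C6N (-1.46, adjusted p = 0.065) or the basal library of rat C7R (-1.49, adjusted p = 0.062). In NMU glands HEYL was 231, 206 and 176 against 140, 132 and 475, overlapping and not called (-0.03, adjusted p = 0.99). HEY1 differed by 0.42 in young ACI rats (adjusted p = 0.54) and was called in none of these 3 bulk comparisons.

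Among receptors, NOTCH4 was 117, 79.9 and 248 in basal and 358, 432 and 298 in luminal cells of young ACI rats, lower by a called -1.43 (SE 0.41, limma adjusted p = 0.011) without overlap. The call was lost without either library of rat LD3R, at -1.07 (adjusted p = 0.098) without its basal and -1.30 (0.058) without its luminal library. In young SD rats NOTCH4 was 91.7, 37.0, 107.5 and 92.8 against 279, 326, 341 and 433, a called -2.14 (SE 0.48, adjusted p = 0.00050) without overlap. NOTCH3 was 358, 148 and 1355 in basal and 2822, 1645 and 1458 in luminal cells of young ACI rats, without overlap but not called (log2 difference -2.18, adjusted p = 0.27). In NMU glands the order was turned, at 328, 458 and 374 in basal against 204, 97.1 and 125 in luminal cells, also without overlap and not called (1.49, adjusted p = 0.34). NOTCH3 overlapped between the sorts of young SD rats, at 704, 315, 344 and 647 in basal and 618, 926, 301 and 1783 in luminal cells (-0.66, adjusted p = 0.63). NOTCH4 in NMU glands was 108.4, 128.3 and 121.6 against 284, 153 and 169, without overlap and not called (-0.70, adjusted p = 0.37). NOTCH1 and NOTCH2 were not called in these comparisons, with differences of -0.64 (adjusted p = 0.66) and 0.88 (0.60) in young ACI rats.

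**Figure D2:**
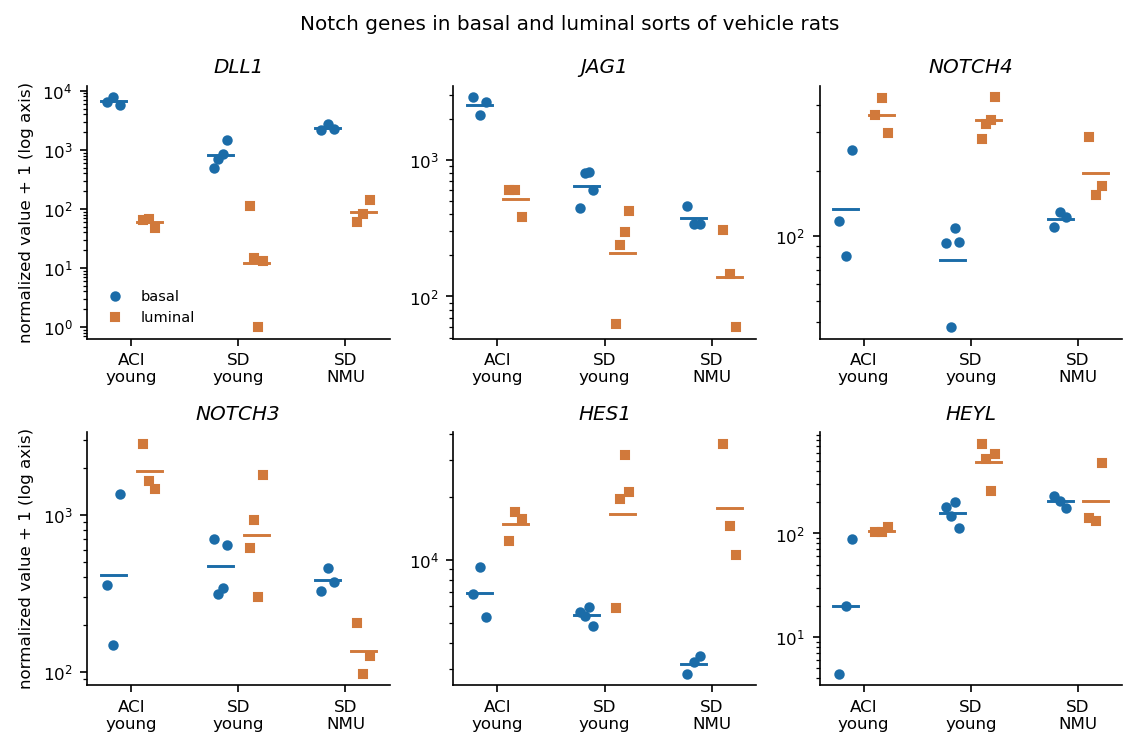
Normalized value + 1 (log axis) of DLL1, JAG1, NOTCH4, NOTCH3, HES1 and HEYL in basal (circles) and luminal (squares) cells of each vehicle rat in young ACI, young SD and NMU SD glands, with lines at the geometric mean. DLL1 was higher in basal than in luminal cells in every data set, and HES1 was higher in the luminal than in the basal sort of every rat, with 1 young SD luminal value inside the basal range of its data set. The young SD basal sort also held fibroblast transcripts, whose part in these values was not tested.

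The single-cell libraries of the same sorts, counted by sort label, had 9 of 10 members called in ACI (4 higher and 5 lower in basal cells, against 65.2% of all genes) and 6 of 10 in SD (3 and 3, against 41.6%). The test and threshold (edgeR, adjusted p at most 0.1) differ from the bulk ones, and JAG2 was added. These counts are therefore not comparable with the bulk counts. The study had removed cells with fewer than 2 keratin reads or any PTPRC read, and cells in clusters held almost only by the other sort. The sorts were thus already filtered in part by cluster. The median log2 differences over the members were -0.98 in ACI and -0.79 in SD, beside 0.01 and -0.11 over all genes. DLL1 was 233 to 284 CPM in the 3 ACI basal libraries and 0.183 to 0.735 in the luminal ones, a log2 difference of 9.13, and in SD 169 to 197 against 0 to 0.130, a difference of 10.7. JAG2, a Jagged ligand not listed in the young bulk tables, was 163 to 176 against 0.141 to 0.622 in ACI (8.88) and 200.5 to 217 against 0.103 to 0.456 in SD (9.32). The luminal values were near the floor, from 20 (ACI) and 4 UMIs (SD) for DLL1 and 15 and 13 for JAG2, so the size of these differences is uncertain. JAG1 was 67 to 110 against 32.7 to 49.4 in ACI (1.05) and 78.4 to 82.1 against 20.1 to 34.1 in SD (1.45). None of these ligand ranges overlapped between sorts.

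Receptors were unevenly divided. NOTCH2 alone was higher in ACI basal cells, at 52.5 to 55.1 against 21.1 to 31.9 CPM (0.98). NOTCH1 was lower in basal cells, at 27.0 to 44.02 against 75.2 to 81.1 in ACI (-1.16) and 42.96 to 54.8 against 63.4 to 77.8 in SD (-0.73, adjusted p = 0.033 in edgeR). The SD call for NOTCH1 was lost without rat SD1 (-0.74, adjusted p = 0.13) or SD2 (-0.52, adjusted p = 0.29). NOTCH3 was 0.114 to 0.286 against 4.04 to 5.77 in ACI (-4.33) and 0.479 to 1.17 against 3.06 to 4.51 in SD (-2.52), and NOTCH4 was 1.60 to 2.57 against 6.97 to 7.34 (-1.73) and 2.75 to 3.23 against 3.71 to 15.8 (-1.88). For both, basal and luminal ranges stayed apart.

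HES1 was 86.3 to 180 CPM in ACI basal and 377 to 537 in ACI luminal libraries (-1.66, edgeR adjusted p = 0.0010). In SD it was 257 to 384 against 390 to 581, which did not overlap but was called with the rat as a block alone (-0.86, adjusted p = 0.17 without the block and 0.0105 with it). HEYL was near its floor, at 0 to 0.046 against 0.564 to 0.734 in ACI from 1 UMI in the basal and 28 in the luminal libraries (-4.29). HEY1 was not called in either strain, with an adjusted p of 0.31 in ACI. In bulk cells of adult ACI rats, JAG2 was 171.65 to 895.52 CPM (of recovered reads) in the 16 basal and 0.07 to 33.14 in the 16 luminal samples, the highest luminal value from a virgin vehicle rat and the others at most 3.17, with no test run between these separately scaled sorts.

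A list of 43 other Notch pathway genes, from ligand endocytosis to the nuclear complex, was read beside the members. Of those measured, 7 were higher and 4 lower in basal cells of young ACI rats (38 measured, 28.9% called against 20.5% of all genes), 10 and 8 in young SD (37, 48.6% against 40.9%) and 7 and 5 in NMU glands (37, 32.4% against 27.3%). The non-canonical ligands DLK1 and DLK2 led, with DLK1 at a log2 difference of 9.19 in ACI and 8.73 in SD and DLK2 at 8.00, 6.48 and 7.57 in the 3 data sets. The young SD basal libraries also held the fibroblast transcripts given above, whose part in the DLK1 difference was not tested. NUMBL, a relative of the Notch antagonist NUMB, was higher by 4.35, 4.00 and 4.46. In the single-cell sorts 11 were higher and 17 lower in ACI (37, 75.7% against 65.2%) and 9 and 11 in SD (38, 52.6% against 41.6%), with DLK2 at 10.07 and 12.88 and NUMBL at 4.52 and 5.96.

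The gland after NMU was compared with the young gland within vehicle SD rats. The 2 groups differ in carcinogen, age, age at dosing and the presence of tumors, which cannot be told apart. In luminal cells 1 of 9 members was called, lower, against 20.8% of all genes, with medians of -0.59 over the members and 0.35 over all genes. HEY1 was 4.00, 10.8 and 14.7 after NMU and 30.8, 98.8, 125 and 115 in young rats, without overlap, a log2 difference of -3.08 (SE 0.89, limma adjusted p = 0.014). Without NMU rat C2N it was -2.60 (adjusted p = 0.099). NOTCH3 was 97.1 to 204 after NMU and 301 to 1783 in young rats, also without overlap, but was not called. In basal cells no member was called by limma, edgeR or DESeq2 and 0 had an unadjusted p under 0.05, against 18.6% of all genes. Of the pathway list, 7 were higher and 5 lower in basal cells (DLK1 -4.48, HES5 3.09, LFNG 2.11; 37 measured, 32.4% against 18.6% of all genes) and 6 and 7 in luminal cells (POFUT1 -1.84, CIR1 1.73, MIB1 1.64, NRARP -1.56; 37, 35.1% against 20.8%). The fibroblast marker sum of the basal libraries moved with these changes, at 26064 to 158124 after NMU against 371747 to 594912 in young rats, and the basal marker sum was 394512 to 450616 against 117091 to 153563. Their part in the basal values was not tested.

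Within the NMU experiment, the question was what remained of TGFBRi dosing 87 days after the carcinogen, and in which rats. By limma and edgeR, NOTCH3 was the 1 member called against vehicle, in luminal cells and in both TGFBRi groups, and DESeq2 called it in both and HEYL in the tumor-free group. It was 204, 97.1 and 125 in tumor-bearing vehicle rats, 1015, 1640 and 868 in tumor-bearing TGFBRi rats and 313, 1088 and 893 in tumor-free TGFBRi rats, so that neither TGFBRi group overlapped vehicle. The log2 differences were 3.05 (SE 0.50, limma adjusted p = 0.032; 0.212% of all genes called) and 2.30 (SE 0.50, adjusted p = 0.035; 0.948%), with the same vehicle rats in both. The median over the 9 members was 0.34 and 0.26, beside -0.26 and -0.32 over all genes. Luminal NOTCH3 was 301 to 1783 in young SD vehicle rats, a range that held every value of both TGFBRi groups. Both calls were lost without either of 2 vehicle rats: without C2N the differences were 3.35 (adjusted p = 0.23) and 2.60 (0.18), and without C2R 2.81 (0.34) and 2.06 (0.29). The call against tumor-bearing TGFBRi rats was also lost without D2N (3.13, adjusted p = 0.059), and that against tumor-free TGFBRi rats without D1N (2.85, 0.088), D1R (1.96, 0.19) or D2R (2.10, 0.18).

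Since mural-like cells had the highest NOTCH3 level in whole glands, the summed value of 7 mural markers was read in the same luminal libraries. It was 1173 to 2875 in vehicle, 205 to 2064 in tumor-bearing TGFBRi and 2103 to 5413 in tumor-free TGFBRi rats, so that it overlapped vehicle in both TGFBRi groups and had its highest values in the tumor-free one. The part of mural RNA in the NOTCH3 values was not tested. The gene-span index was -0.761 to 0.260, -0.379 to 0.680 and -0.268 to 0.296 in the same order, and with it as a covariate neither comparison was called (adjusted p = 0.078 and 0.05002). HEYL was 140, 132 and 475 in luminal cells of vehicle rats, 603, 200.8 and 853 in tumor-bearing and 1141, 882 and 932 in tumor-free TGFBRi rats, the last without overlap with vehicle. It was not called by limma (1.18, adjusted p = 0.30, and 2.24, adjusted p = 0.055) but was by DESeq2 in tumor-free rats (adjusted p = 0.016), and limma called it in both groups without vehicle rat C5R (1.78, adjusted p = 0.038, and 2.84, 0.0018). C5R had the highest HEYL of the vehicle rats (475), so leaving it out widens these gaps. The share of all genes called without C5R is not given.

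**Figure D3:**
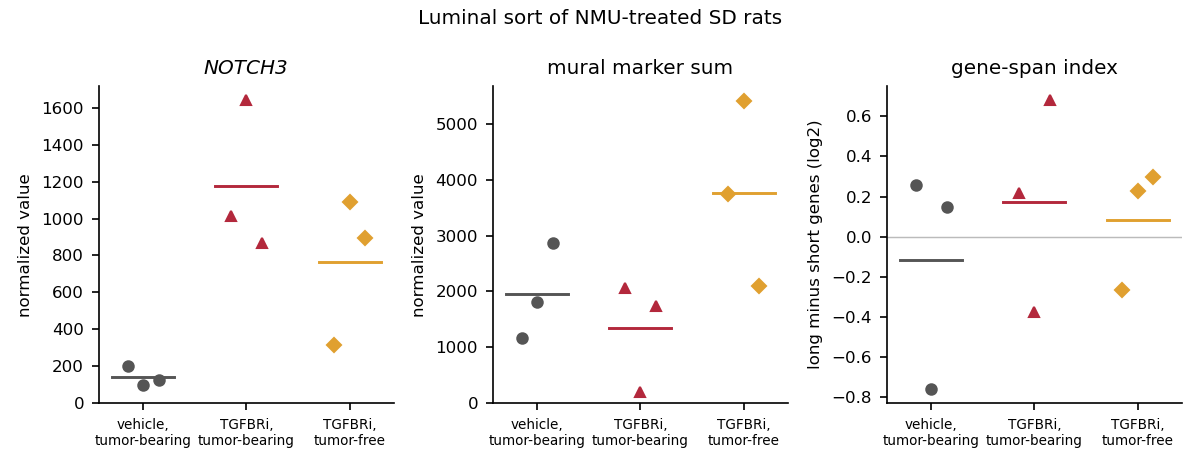
NOTCH3 normalized value, summed value of 7 mural markers and gene-span index (log2) in luminal cells of NMU glands, 1 point per rat with lines at the mean of 3 rats. Both TGFBRi groups lay above the vehicle rats for NOTCH3, and the mural marker sum, 1173 to 2875 in vehicle, 205 to 2064 in tumor-bearing and 2103 to 5413 in tumor-free TGFBRi rats, and the index overlapped vehicle in both TGFBRi groups.

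Between tumor-free and tumor-bearing TGFBRi rats, DLL1 was higher in basal cells of tumor-free rats, 1 of 9 members against 5.58% of all genes (medians 0.25 and 0.24). It was 3889, 2460 and 3869 against 2218, 1505 and 1217, without overlap, and 2136, 2789 and 2230 in vehicle rats, a log2 difference of 1.06 (SE 0.28, limma adjusted p = 0.045) between the TGFBRi groups. It was lost without D1N (0.95, adjusted p = 0.17), D2R (0.95, 0.15), D3R (1.02, 0.086) or D4R (0.87, 0.12). The gene-span index moved with it, at 0.225 to 0.367 in tumor-free and -0.747 to -0.063 in tumor-bearing rats, and with it as a covariate the difference was 0.84 (adjusted p = 0.57). Since the index did not overlap between these groups, index and group cannot be told apart here. Of the pathway list, NUMBL (1.63), the protease FURIN (1.17) and DLK2 (1.10) were higher and PSENEN, a γ-secretase subunit, lower (-1.32) in the tumor-free rats (36 measured, 11.1% against 5.58% of all genes). In luminal cells of tumor-free TGFBRi against vehicle rats, DTX2 (1.94) and FURIN (1.84) were higher (37 measured, 5.41% against 0.948% of all genes).

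The other NMU comparisons called no member. Against vehicle, basal cells had 0 of 9 in tumor-bearing (1.31% of all genes) and tumor-free TGFBRi rats (0%), with 1 and 0 at an unadjusted p under 0.05. Luminal cells of tumor-free against tumor-bearing TGFBRi rats had 0 of 9 (0%), with 0 at an unadjusted p under 0.05. CD45+ cells had 0 of 9 in tumor-bearing and tumor-free TGFBRi rats against vehicle (0.015% and 0%), with 2 and 0 at an unadjusted p under 0.05, and 0 between TGFBRi groups (0%), with 2. In these, edgeR on reads called none, and DESeq2 called 1, between the TGFBRi groups in CD45+ cells. DLL1 ranged there from 279 to 2268 in tumor-bearing TGFBRi, from 124 to 162 in vehicle and from 6.01 to 119 in tumor-free TGFBRi rats, 3 ranges that did not overlap. In basal cells, NOTCH1 and NOTCH2 were called without tumor-bearing TGFBRi rat D2N, lower than vehicle in the tumor-bearing rats left (-1.32, limma adjusted p = 0.039, and -1.15, 0.049) and higher in tumor-free than in those rats (1.26, 0.034, and 1.82, 0.0051). D2N had the highest value of its group for both (330 and 1072), so leaving it out widens these gaps. The gene-span index of the rats left, D3R and D4R, was -0.747 and -0.319. It was 0.074 to 0.415 in vehicle and 0.225 to 0.367 in tumor-free rats, and its part was not tested. The share of all genes called in these fits is not given.

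In sorted tumor cells no member was called in EPCAM+ (9 measured) or CD45+ cells (8 measured) by limma, edgeR or DESeq2, with 0 at an unadjusted p under 0.05 in either, against 0% and 0% of all genes. NOTCH3 in EPCAM+ cells was 280, 539 and 2447 in vehicle and 675, 1429 and 4299 in TGFBRi rats, overlapping, while the mural sum was 10147 to 24464 and 17713 to 34267. HEYL was 477 to 1336 against 348 to 1233 and NOTCH4 427 to 1958 against 374 to 627.

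In adult ACI rats the comparisons were of treatment within virgin and within parous rats, of parity within each arm, and of their difference. Basal cells held all member calls. In virgin rats 2 of 10 members, NOTCH1 and NOTCH2, were lower with TGFBRi, against 8.73% of all genes, with medians of -0.63 over the members and -0.25 over all genes. In parous rats 0 of 10 were called by limma, edgeR or DESeq2 (2 at an unadjusted p under 0.05, 0.00744% of all genes). Between parous and virgin TGFBRi rats 3 of 10 were higher in parous rats, NOTCH1, NOTCH2 and NOTCH3, against 12.1% of all genes (medians 0.78 and 0.24). Between parous and virgin vehicle rats 0 of 10 were called by any of the tools, 0 at an unadjusted p under 0.05, against 0%.

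NOTCH2 carried the clearest pattern. It was 3038, 1465, 1955 and 1367 in virgin vehicle, 800, 536, 1150 and 623 in virgin TGFBRi, 1628, 1580, 1269 and 2420 in parous vehicle and 2573, 2987, 2278 and 2551 in parous TGFBRi rats. All virgin TGFBRi rats lay below all rats of the other 3 groups. TGFBRi against vehicle in virgin rats gave -1.32 (SE 0.28, limma adjusted p = 0.0096, called in all 8 fits that left out a virgin library), parous against virgin TGFBRi rats gave 1.79 (adjusted p = 0.0013), and the treatment effect differed with parity by 1.94 (adjusted p = 0.030; 1 of 10 members, 1.04% of all genes, medians 0.95 and 0.29). The parity difference was lost in 8 fits that left out a library, those without C_N2N, C_P1N, C_P1R, C_P2N, D_P1N, D_P1R, D_P2N or D_P2R, all at 1.81 to 2.00, with adjusted p from 0.053 without parous vehicle rat C_P1R to 0.082 without C_P2N. The virgin comparison fitted on its 2 groups alone had an adjusted p of 0.080.

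NOTCH1 was 2177, 696, 1135 and 904 in virgin vehicle, 364, 437, 631 and 587 in virgin TGFBRi, 850, 912, 847 and 1863 in parous vehicle and 1488, 2054, 1158 and 1562 in parous TGFBRi rats. Virgin TGFBRi rats again lay below all others. The virgin comparison gave -1.18 (SE 0.34, limma adjusted p = 0.039), which was lost without vehicle rat C_N1N (-0.86, adjusted p = 0.10), C_N2N (-1.17, 0.094) or C_N2R (-1.28, 0.058), without TGFBRi rat D_N1N (-1.03, 0.074) or D_N1R (-1.12, 0.058), and in a fit on the 2 groups alone (0.13). Parous against virgin TGFBRi rats gave 1.64 (adjusted p = 0.0061). NOTCH3 was 2644, 1129, 916 and 361 in virgin TGFBRi and 7126, 5553, 4135 and 2981 in parous TGFBRi rats, without overlap (2.24, SE 0.52, adjusted p = 0.012), and 2845, 1436, 1274 and 851 in virgin and 727, 2084, 1072 and 2436 in parous vehicle rats. The summed mural markers of these libraries were 1630 to 5378, 5142 to 18346, 2269 to 8012 and 3029 to 6208 in the same order, and the part of mural RNA in the NOTCH3 values was not tested.

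The gene-span index moved with these 3 receptors. It was -0.232 to 0.168 in virgin vehicle, -0.538 to 0.013 in virgin TGFBRi, -0.060 to 0.316 in parous vehicle and 0.202 to 0.382 in parous TGFBRi rats. With the index as a covariate, none of these calls remained: in virgin rats NOTCH1 was -0.95 (adjusted p = 0.20) and NOTCH2 -1.06 (0.087), between parous and virgin TGFBRi rats NOTCH1 was 1.19 (0.53), NOTCH2 1.28 (0.37) and NOTCH3 0.24 (0.94), and the parity difference of NOTCH2 was 1.51 (0.34). The index did not overlap between parous and virgin TGFBRi rats, so index and parity cannot be told apart between them. The share of all genes called in the parity fits with the index is not given. Without virgin TGFBRi rat D_N1N, HEY1 (1.83, adjusted p = 0.024) and JAG2 (1.10, 0.034) were also called higher in parous than in virgin TGFBRi rats, and NOTCH3 for the parity difference (2.75, 0.034). With all rats these differences were smaller, at 1.37, 0.93 and 2.28. D_N1N had the highest index (0.013) of its group. The share of all genes called without D_N1N is not given. In the fit with the index DLL1 was called, at 1.42 (adjusted p = 0.031; 1 of 10 members, 2.62% of all genes) in virgin rats, where it was 11475, 7843, 5547 and 4710 with TGFBRi and 3313, 4146, 5767 and 3443 with vehicle. Of the pathway list, NEURL1 (-2.87) and the coactivator MAML3 (-1.41) and the protease ADAM17 (-1.34) fell with TGFBRi in virgin rats and none rose, 3 of 37 measured or 8.11% against 8.73% of all genes. In parous against virgin TGFBRi rats 6 of 37 were higher, 16.2% against 12.1% of all genes, among them NEURL1 (2.98), MAML3 (2.29) and NUMBL (1.10).

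**Figure D4:**
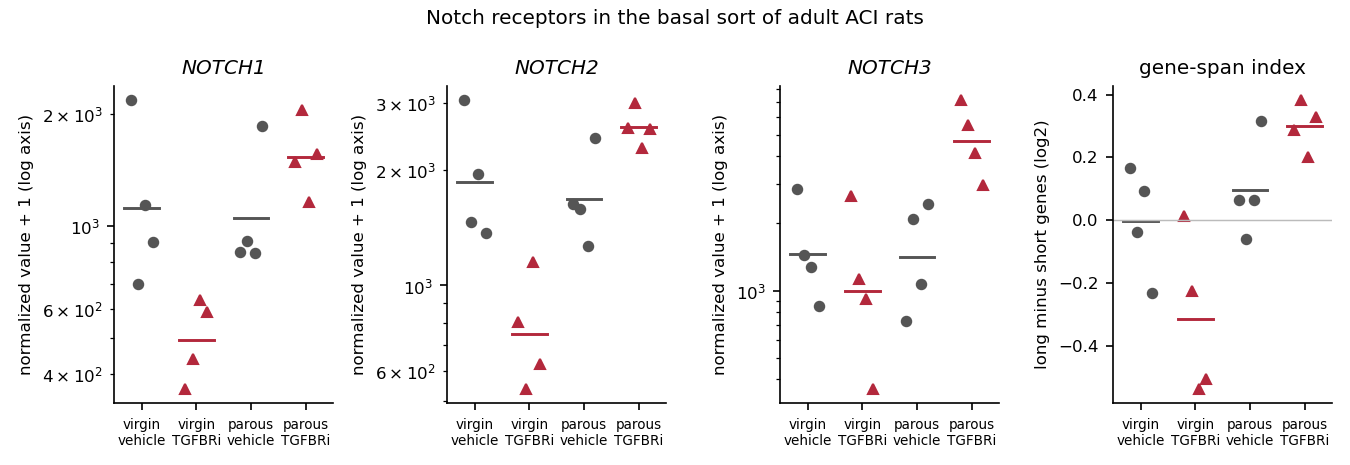
Normalized values (log axis) of NOTCH1, NOTCH2 and NOTCH3 and the gene-span index (log2) in basal cells of adult ACI rats, 4 rats in each of the 4 groups, with lines at the geometric mean for genes and the mean for the index. Virgin TGFBRi rats lay lowest for NOTCH1 and NOTCH2 and had the lowest mean index (-0.315), and parous TGFBRi rats had the highest (0.300).

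In luminal cells of adult rats no member was called by limma in any of 5 comparisons. Those were treatment in virgin rats (0% of all genes, 0 members at an unadjusted p under 0.05) and in parous rats (0.0281%, 3), parity in vehicle rats (0%, 4) and in TGFBRi rats (0%, 0), and the parity difference (0%, 2). There edgeR called none and DESeq2 called 1, for parity in vehicle rats. In CD45+ cells 0 of 10 were called by limma, edgeR or DESeq2 in any of the 5, with 0 at an unadjusted p under 0.05, against 0.022% of all genes for treatment in virgin rats and 0% in the other 4.

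In young ACI rats, where the question was the immediate and the lasting effect of TGFBRi, limma called 0 of 81 member tests over 9 comparisons, 8 had an unadjusted p under 0.05, edgeR called 0 and DESeq2 2. All genes called were 3.34% in basal, 1.01% in luminal and 2.85% in CD45+ cells at day 0. At day 7 they were 0.00639%, 0% and 0%, and at day 14 they were 0% in each. At day 0, 2 of 9 members did not overlap between arms in basal cells and 1 of 9 in luminal cells, while 32.1% of all genes did not overlap in either, so both shares lay below the background. In basal cells at day 0 HEY1 was 421, 374 and 341 with TGFBRi and 129, 217 and 186 with vehicle, and HEYL was 117, 141 and 163 against 3.43, 18.8 and 87.8. In luminal cells at day 0 HES1 was 27198, 19090 and 21294 against 12300, 16849 and 15626. HEY1 and HEYL in basal and HES1 in luminal cells thus lay higher in every TGFBRi rat than in any vehicle rat, while HES1 in basal cells overlapped, and the gene-span index lay higher with TGFBRi as well, at 0.727 to 1.266 against 0.173 to 0.615 in basal and 0.670 to 0.781 against 0.116 to 0.466 in luminal cells.

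With the index as a covariate, a fit chosen after seeing the data, 8 of 81 member tests were called in young ACI rats. At day 0 they were 4 of 9 in basal cells, HES1 (0.64), HEY1 (1.02), HEYL (2.33) and JAG1 (-1.41), against 26.7% of all genes in the same fit. They were 1 of 9 in luminal cells, HES1 (0.81), against 5.88%, and 1 of 9 in CD45+ cells, NOTCH3 (-4.69), against 8.03%. In basal and luminal cells at day 0 the index did not overlap between arms, so index and treatment cannot be told apart there. NOTCH4 was the 1 of 9 in luminal cells at day 7 (-1.12, against 3.56%) and at day 14 (-1.08, against 4.41%). NOTCH4 was 182, 324 and 347 with TGFBRi against 1066, 431 and 321 with vehicle at day 7, overlapping, and 287, 199 and 233 against 656, 436 and 594 at day 14, without overlap. NOTCH3 in CD45+ cells at day 0 was 0, 194 and 50.8 against 445, 421 and 572, and the mural marker sum moved with it, at 154 to 559 against 1769 to 2318. Without the libraries of an index below -1, limma called 1 member test, JAG1 in luminal cells at day 7 (1.41, adjusted p = 0.047, 3% of all genes). Of the pathway list, DLK1 (-4.05, limma adjusted p = 0.006), APH1A (-1.32) and POGLUT1 (-1.25) fell in basal cells at day 0 and none rose (38 measured, 7.89% against 3.34% of all genes). Between vehicle rats at day 14 and day 0, limma called 0 of 9 members in basal (0.0384% of all genes), luminal (0.389%) and CD45+ cells (0.129%), with 2 at an unadjusted p under 0.05 in each, edgeR 0, and DESeq2 1 in basal and 1 in luminal cells.

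In young SD rats limma, edgeR and DESeq2 called 0 of 9 members in basal, luminal and CD45+ cells, with 0, 0 and 1 at an unadjusted p under 0.05, and 0% of all genes in each. In the E2 experiment the 3 tools called 0 of 10 members for TGFBRi against vehicle in any of 6 comparisons. In CD45+ cells of tumor-bearing rats with E2, limma called NOTCH1 (-1.20, adjusted p = 0.020) and NOTCH2 (-1.92, 4.8e-05) lower without TGFBRi rat A4-9, which left 1 TGFBRi rat, assumed to vary like the other groups. The gene-span index of the CD45+ library of the rat left, A4-14, was -0.732, the lowest of the CD45+ libraries of this experiment, which otherwise ran from -0.188 to 0.322, and its part was not tested. The shares of all genes called in luminal cells were 0.0147% without E2, 0.00736% in tumor-bearing and 0.0147% in tumor-free TGFBRi rats with E2, both against the same tumor-bearing vehicle rats, and in CD45+ cells 0%, 0.0223% and 0%, with 0, 0, 0, 1, 0 and 2 members at an unadjusted p under 0.05 in that order. In the tumor-free comparison treatment and tumor status cannot be told apart. E2 against no E2 in vehicle rats, where E2 and tumors cannot be told apart, gave 0 of 10 in luminal (1.48% of all genes) and CD45+ cells (0.282%), with 1 and 3 at an unadjusted p under 0.05 and 1 by DESeq2 in CD45+ cells. In luminal cells HEYL was 538 to 865 in tumor-bearing vehicle rats with E2 and 165 to 399 in vehicle rats without it, which did not overlap, and NOTCH4 was 783 to 1665 against 295 to 1093, which did. NOTCH4 was 2271 and 3388 in the 2 tumor-bearing TGFBRi rats with E2, above the 4 tumor-bearing vehicle rats, and was not called.

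Single cells let the effect of TGFBRi be read within cell classes. In the sorted cells, 10 of 48 member tests over 3 classes of 2 strains were called, 3 higher and 7 lower with TGFBRi. Per class, 26.1 to 36.9% of all genes were called, and their split by direction is not given. The count of members was 16 with library size as the scale, 1 higher and 15 lower, 5 without vehicle rat SD1 or SD3, 6 without SD2 and 12 without ACI9. For these other fits the share of all genes called is not given. Vehicle and TGFBRi cells of a class sat largely in different clusters: in ACI basal-like cells clusters 0, 3 and 11 held vehicle and 1, 5 and 10 TGFBRi cells, and in SD basal-like cells 5 and 17 held vehicle and 2, 3, 4 and 16 TGFBRi cells. In SD, luminal progenitor-like cells were in cluster 0 for vehicle and in 1, 6, 7, 9 and 15 for TGFBRi, and mature luminal-like cells in 12 and in 8, 10, 14 and 23. The part of that in the changes was not tested. The log2 changes are on edgeR's TMM scale and the CPM are not. Library size in place of TMM moved the median over all genes by -0.42 to -0.22 in these classes, so that a rise is larger and a fall smaller on the printed scale than in the CPM. Whole sorted libraries, with no classes named, called 5 of the 40 tests made. The share of all genes called in those fits is not given, so these calls have no background beside them.

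NOTCH1 was higher with TGFBRi in basal-like cells of both strains. In ACI rats it was 48.6, 62.8 and 62.99 CPM with TGFBRi and 19.5, 28.8 and 40.3 with vehicle, without overlap (1.17, edgeR adjusted p = 0.012, 1 of 9 members, 36.9% of all genes), and held in each of 6 fits without a rat. In SD rats it was 46.1 to 73.3 (median 69.6) against 46.1, 49.3 and 53.8, overlapping (0.79, adjusted p = 0.043, 28.9% of all genes), and was lost without any of the vehicle rats (adjusted p = 0.13, 0.10 and 0.18 without SD1, SD2 and SD3) and with library size as the scale (0.35, adjusted p = 0.25). Whole basal sorts gave 0.96 in ACI and 0.85 in SD, both called. In SD basal-like cells 2 of the 3 ligands were called lower, 2 of 8 members: DLL1 at 38.4 to 123 (median 74.3) against 171, 193 and 202 (-0.87, adjusted p = 0.066) and JAG2 at 78.96 to 127 (median 101.4) against 202, 223 and 231 (-0.71, adjusted p = 0.026), both without overlap. DLL1 was not called without SD1 (-0.82, adjusted p = 0.19), SD2 (-0.86, 0.12) or SD3 (-0.93, 0.18), and JAG2 was not without SD1 (-0.69, 0.12) or SD3 (-0.76, 0.13). In whole SD basal sorts DLL1 (-0.84) and JAG2 (-0.68) were called too, and JAG1 was not (0.01, adjusted p = 0.99).

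In luminal progenitor-like cells of ACI rats NOTCH4 was 3.86, 4.19 and 4.58 CPM with TGFBRi and 9.34, 9.78 and 12.2 with vehicle, without overlap (-0.98, edgeR adjusted p = 0.011, 1 of 8 members, 28.2% of all genes). In those of SD rats 2 of 9 members were lower (28.4% of all genes). NOTCH2 was 14.3 to 29.3 (median 25.4) against 43.4, 49.8 and 53.6 (-0.68, adjusted p = 0.078) and NOTCH3 0.459 to 2.41 against 3.55, 3.73 and 4.05 (-1.21, adjusted p = 0.067), both without overlap. Both were lost without any of the 3 vehicle rats, at an adjusted p of 0.22, 0.18 and 0.17 for NOTCH2 and 0.19, 0.16 and 0.16 for NOTCH3 without SD1, SD2 and SD3. In whole luminal sorts NOTCH2 was called in SD (-0.79, adjusted p = 0.059), and NOTCH4 in ACI (-0.46, 0.13) and NOTCH3 in SD (-0.87, 0.25) were not.

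JAG1 was called lower in mature luminal-like cells of both strains but in neither whole luminal sort (-0.28, edgeR adjusted p = 0.33, in ACI and -0.33, 0.38, in SD). It was 36.6, 49.3 and 51.2 CPM against 60.2, 62.1 and 84.1 in ACI (-0.38, edgeR adjusted p = 0.070, 26.1% of all genes) and 26.7 to 49.8 (median 36.4) against 50.3, 84.1 and 91.02 in SD (-0.76, adjusted p = 0.028, 31.5% of all genes), without overlap in either. The ACI call was lost without ACI7 (-0.22, adjusted p = 0.36), ACI12 (-0.42, 0.10) or ACI16 (-0.28, 0.19) and with DESeq2 (adjusted p = 0.12), and the SD call without SD1 (-0.57, 0.16). NOTCH1 was higher in ACI mature luminal-like cells by 0.37 (adjusted p = 0.027) with overlapping ranges, and was not called with library size as the scale (0.15, adjusted p = 0.39) or without ACI7 (0.35, 0.12).

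In whole SD glands 20 of 114 member tests over 13 classes were called, 11 higher and 9 lower with TGFBRi. Per class, 3.27 to 44.8% of all genes were called, and their split by direction is not given. With library size as the scale, which moved the median over all genes by -0.02 to 0.25, 27 member tests were called, 19 higher and 8 lower. The count was 13 without vehicle rat veh2 and 31 without veh4. For these other fits the share of all genes called is not given. Basal-like cells had 6 of 10 (4 higher, 2 lower, 44.8% of all genes, medians 0.44 and 0.06). JAG1 was 43.8 to 70.7 CPM with TGFBRi and 136, 181 and 104.3 with vehicle, without overlap (-1.32, edgeR adjusted p = 0.00021). JAG2 was 43.7 to 57.5 against 34.6, 31.8 and 38.8 (0.53, adjusted p = 0.012), also without overlap, the opposite direction to sorted SD basal-like cells (-0.71). JAG1 was not called in the whole basal sort of SD (0.01, adjusted p = 0.99) or ACI rats (0.25, 0.37). The basal-like class of whole glands was itself split, with cluster 12 holding 97.1% vehicle and cluster 5 12.4% vehicle cells.

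Of the receptors in whole-gland basal-like cells, NOTCH1 was 57.4 to 90.3 CPM against 45.6, 57.2 and 58.6 (0.48, edgeR adjusted p = 0.021), overlapping, and was not called without veh1 (0.40, adjusted p = 0.10). NOTCH2 was 43.1 to 61.01 against 59.9, 72.2 and 79.7 (-0.48, adjusted p = 0.030), overlapping at 1 rat, and was not called without veh1 (-0.43, 0.11) or veh2 (-0.39, 0.14). NOTCH4 was 1.67 to 2.496 against 0.315 to 0.993 (1.33, adjusted p = 0.010), without overlap but from few UMIs. The target HEY1 was 0.579 to 2.72 against 0.0662 to 2.21 (1.80, adjusted p = 0.083) from 91 UMIs, overlapping. It was not called without veh1 (1.60, 0.25) or veh2 (1.01, 0.32) or with DESeq2 (1.51, 0.11).

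Mature luminal-like cells had 4 of 10 (1 higher, 3 lower, 26.6% of all genes, medians -0.92 and 0.02), none of them overlapping. NOTCH1 was 54.3 to 82.3 CPM against 135, 173 and 192 (-1.33, edgeR adjusted p = 4.9e-05), NOTCH2 was 1.80 to 3.70 against 7.08 to 9.59 (-1.48, adjusted p = 0.0015) and JAG1 was 26.2 to 49.6 against 81.1, 56.5 and 112 (-1.34, adjusted p = 0.0019). NOTCH3 moved the other way, at 27.9 to 52.8 against 20.1, 22.7 and 15.7 (0.92, adjusted p = 0.0083). In sorted SD mature luminal-like cells NOTCH1 (0.12, adjusted p = 0.81) and NOTCH3 (-0.40, 0.42) were not called, nor were they in the whole SD luminal sort (-0.12, 0.72, and -0.87, 0.25), so that NOTCH3 was on the other side of 0 there. HES1 in the same cells was 196 to 418 against 241, 143 and 169, overlapping and not called. Luminal progenitor-like cells had 0 of 10 by edgeR and DESeq2, 0 at an unadjusted p under 0.05, against 27.2% of all genes.

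The vessel classes were read next. Of the rises there, those of NOTCH1 and JAG2 were also called in whole-gland basal-like cells and that of NOTCH3 in mature luminal-like cells. In mural-like cells NOTCH3, whose highest level was there, was 334 to 462 CPM with TGFBRi against 200, 212 and 344 with vehicle, overlapping at 1 rat (0.49, edgeR adjusted p = 0.044, 1 of 10 members, 30.9% of all genes), and was not called without veh1 (0.35, adjusted p = 0.18), veh2 (0.40, 0.18) or the 6% of cells with the most UMIs (0.39, 0.13). In blood endothelium-like cells 3 of 10 were called (31.8% of all genes). DLL1 was 56.2 to 82.1 against 105.2, 117 and 106.5 (-0.90, adjusted p = 0.00028), NOTCH1 was 165 to 206 against 135, 113 and 109 (0.41, adjusted p = 0.033; 0.36 and 0.14 without veh2), and JAG2 was 18.98 to 28.95 against 5.92, 8.68 and 15.9 (1.09, adjusted p = 0.0076), all without overlap. In lymphatic endothelium-like cells 2 of 8 were higher (15.6% of all genes), NOTCH1 at 137 to 215 against 91.3 to 126 (0.59, adjusted p = 0.042) and NOTCH2 at 43.9 to 74.2 against 21.9 to 52.6 (0.73, adjusted p = 0.085). NOTCH1 there was not called without veh2 (0.61, adjusted p = 0.10) or veh4 (0.52, 0.12). NOTCH2 was not called without veh1 (0.55, 0.29) or veh4 (0.57, 0.25) or with DESeq2 (0.76, 0.12).

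Among other classes, JAG1 in macrophage-like cells was 7.96 to 18.8 CPM with TGFBRi against 52.5, 69.5 and 20.1 with vehicle, without overlap (-2.12, edgeR adjusted p = 0.0089, 1 of 9 members, 3.94% of all genes). In B cell-like cells (17.4% of all genes) JAG1 was lower by -1.80 (adjusted p = 0.052) from 39 UMIs, and -0.99 (0.43) without veh2, and NOTCH4 was 5.27 to 9.48 against 2.92 to 4.45 (0.78, adjusted p = 0.051), without overlap, and 0.68 (0.19) without veh1. In fibroblast-like cells DLL1 was 0.997 to 2.91 against 1.68 to 4.44 (-1.03, adjusted p = 0.053, 1 of 10 members, 29.8% of all genes), overlapping. It was not called without veh2 (-0.75, 0.24), without the 6% of cells with the most UMIs (-0.75, 0.16) or with library size as the scale (0.12). No member was called by edgeR or DESeq2 in neutrophil-like (0 of 6, 7.92% of all genes), NK-like (0 of 7, 3.27%), Schwann-like (0 of 9, 10.7%) or T cell-like cells (0 of 7, 8.07%), with 0, 3, 3 and 1 at an unadjusted p under 0.05. HES1 was tested in 19 class comparisons of TGFBRi against vehicle and HEYL in 10, and neither was called in any of them with all rats in the fit. Vehicle rat veh4 stood apart for HES1. In blood endothelium-like cells HES1 was 34.1, 36.6 and 224 CPM in vehicle rats veh1, veh2 and veh4 and 75.9 to 259 with TGFBRi, and in fibroblast-like cells it was 14.5, 18.4 and 68.9 against 31.7 to 79.1. Without veh4, HES1 was called higher with TGFBRi in 5 classes: blood endothelium-like (1.64, edgeR adjusted p = 0.059), fibroblast-like (1.51, 0.0037), B cell-like (1.18, 0.032), T cell-like (1.51, 0.036) and Schwann-like cells (0.91, 0.020). HEY1 was then called higher in blood endothelium-like (1.79, 1.3e-05) and mural-like cells (2.00, 0.00062), NOTCH4 in blood endothelium-like cells (0.59, 0.012) and JAG2 in mural-like cells (2.49, 0.090). Other members were then called lower. They were NOTCH1 (-0.47, 0.039) and NOTCH2 (-0.32, 0.066) in fibroblast-like, DLL1 in macrophage-like (-1.46, 0.099) and JAG1 in neutrophil-like cells (-1.01, 0.017). For each gene and class called higher, veh4 was the highest vehicle rat, so leaving it out raises the change by itself. It was the lowest vehicle rat for the falls of NOTCH1, NOTCH2 and JAG1, which leaving it out deepens by itself. For DLL1 it lay between the other vehicle rats. The share of all genes called without veh4 is not given. HEYL was called in no fit without a rat.

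**Figure D5:**
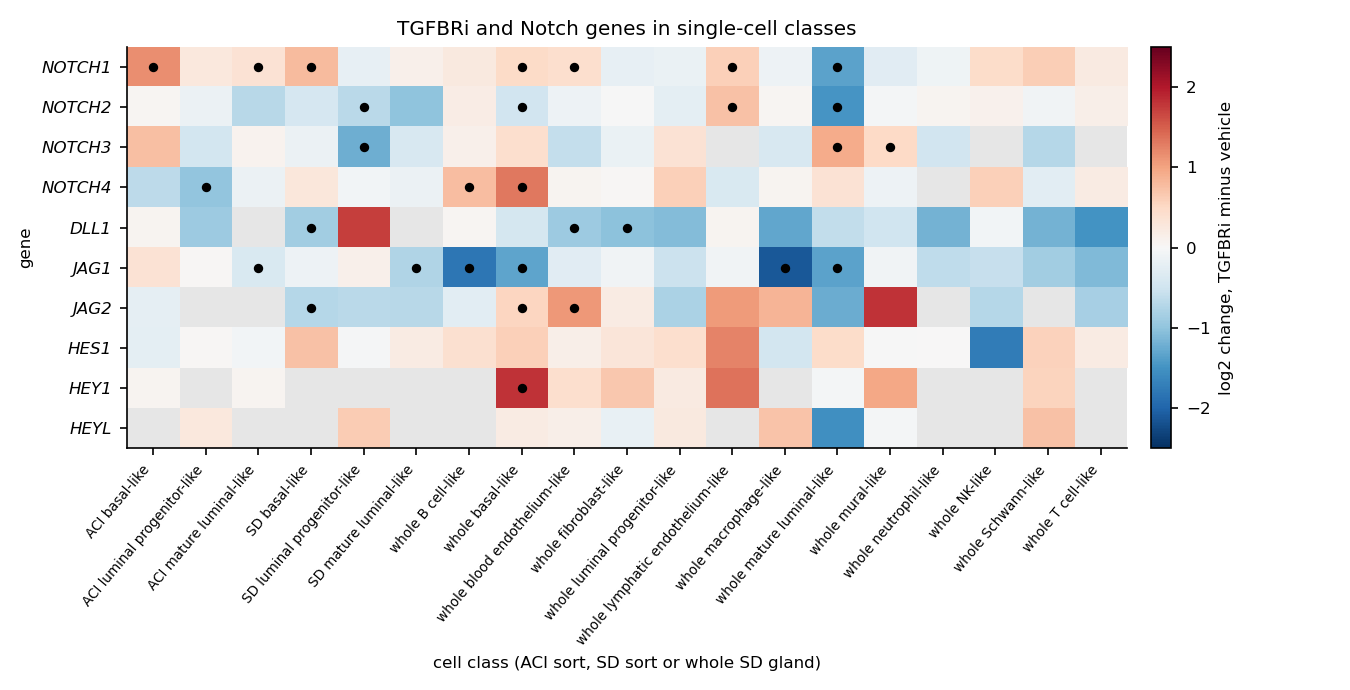
Log2 change of each member, TGFBRi against vehicle, in the cell classes of sorted ACI and SD cells and of whole SD glands, with the colour scale limited to 2.5 in either direction, dots on changes called at an adjusted p of at most 0.1 and grey where a gene was not measured. JAG1 was called lower in 6 of the classes shown, and HES1 and HEYL carry no dot.

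Of the pathway list in single cells, 7 were higher and 11 lower with TGFBRi in ACI basal-like cells (32 measured, 56.2% called against 36.9% of all genes) and 5 and 9 in SD basal-like cells (35, 40% against 28.9%). DLK1 was higher in both classes (1.90 and 3.29) and in the whole SD basal sort (3.21, edgeR adjusted p = 0.011). In the whole ACI basal sort it was not called (-0.02, adjusted p = 0.99), and in bulk basal cells of young ACI rats at day 0 it was lower (-4.05), so its direction in ACI rats differed between these measurements. The coactivator MAML2 was lower in SD basal-like (-1.44), luminal progenitor-like (-1.65) and mature luminal-like cells (-1.83). In whole-gland basal-like cells 9 were higher and 6 lower (39 measured, 38.5% against 44.8%), among them the glycosyltransferases MFNG (1.51) and RFNG (-1.14). In whole-gland mature luminal-like cells 6 were higher and 5 lower (35, 31.4% against 26.6%), with LFNG at 1.42 and ADAM17 at -1.03, and in mural-like cells 3 and 8 (39, 28.2% against 30.9%), with the target HEY2 and LFNG both at -1.01. DLL4, the endothelial Delta ligand, was higher in lymphatic endothelium-like cells (1.35), where 3 rose and 2 fell (32, 15.6% against 15.6%).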

How the data were processed

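The authors prepared SMARTer v4 libraries of sorted cells, sequenced them on a NextSeq 500, aligned reads to rn6 with STAR 2.5.1b and counted them per gene without strand by HTSeq. The deposited bulk values are a signal, counts divided by DESeq2 1.30.1 size factors. Whole reads were recovered for all 2526805 values above 0 within 0.001 (100%), for the count alternatives, and rows naming no gene (23.1 to 42.5% of reads in the 85 samples that list them) were left out. Since the values are normalized, limma was used where the study used DESeq2. The deposited single-cell values are UMI counts from Cell Ranger 4.0.0 (3′ kit, sorted cells) or 7.0.0 (5′ kit, whole gland), per the labels and the study's methods, read by the authors with Seurat 4.0.0 or 4.1.1. The deposited cells numbered 16762 (ACI), 39766 (SD) and 103524 (whole gland), the numbers the paper gives after its filters.

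Bulk fits used limma 3.58.1 (trend, robust) on log2(value + 1), over genes whose values summed to at least 10, fitting each sorted fraction of an experiment jointly over its groups, and basal with luminal samples for the lineage comparisons. Parts of 1 rat's gland were averaged. Single-cell fits used edgeR 4.0.16 (quasi-likelihood, TMM) on UMIs summed per rat, for genes with at least 10 UMIs and rats with at least 10 cells. Cells were clustered on 2000 variable genes, 30 components and 20 neighbours at resolution 0.8 (igraph 0.11.9, leidenalg 0.10.2), leaving out the members and the pathway list, into 16, 26 and 50 clusters. A cluster was named from marker lists when at least 3 markers and 70% of a list were raised. Doublets were not called, and leaving out the 6% of cells with the most UMIs was an alternative. Unnamed clusters held 1.64% of TGFBRi and 16.8% of vehicle cells in the ACI basal sort, 15.7% and 1.51% in the SD basal sort, 7.84 to 14.9% in the luminal sorts and 11.0% and 12.8% in whole glands. Libraries shared up to 3 cell barcodes in ACI, 7 in SD and 88 to 284 in whole glands, at most 2.51% of the smaller library.

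The members, the pathway list and the tests were chosen with earlier results of these data known, and every member was tested in each comparison that measured it, and values are given for those called and for some others. The fits with the gene-span index, without the libraries below -1, on whole sorted libraries and with library size alone were chosen after seeing the data. Gene spans were RefSeq lengths (GRCr8), found for 89% of genes, and no coordinates were converted. The labels tie basal and luminal sorts to the same rat, and their deviations from group means correlated with a median r of 0.488 over 18 young ACI pairs and 0.172 over 17 SD pairs. Rats are the replicates, and no libraries were duplicates. DESeq2 1.42.0 was run as an alternative. The scripts were tested on simulated data. The values of 1 gene of the pathway list are not reported here.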

Additional observations from a re-analysis of the deposited data

Results flagged for a closer look

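Of 274 groups of 4 to 10 samples tested, 20 held 1 sample far from the others by Dixon's criterion, which marks about 1 in 20 groups by chance. In bulk data (normalized values), DLL1 was 113 in 1 young SD luminal vehicle rat (others 0 to 13.69) and HEYL was 266.1 in 1 young SD CD45+ TGFBRi rat (others 72.11 to 98.15). In adult CD45+ cells of virgin vehicle rats, HEY1 was 61.01 (others 7.629 to 14.77) and HEYL 398.5 (28.61 to 55.06) in 1 rat each. In adult CD45+ cells of parous TGFBRi rats, NOTCH2 was 4590 (others 1233 to 1363), JAG1 700.8 (257.1 to 298.6) and JAG2 1763 (193.1 to 431.3). In adult luminal cells, JAG2 was 898.1 in 1 virgin vehicle rat (others 18.34 to 40.73). In adult basal cells, NOTCH1 was 1863 in 1 parous vehicle rat (others 846.5 to 911.9) and HEYL was 1429 in 1 virgin TGFBRi rat (others 409.6 to 560.4).

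In the E2 experiment, NOTCH4 was 1721 (others 895.7 to 1019) and DLL1 818.4 (4.974 to 66.66) in luminal cells of tumor-free TGFBRi rats, and JAG1 was 1099 (113.1 to 164.8) in luminal and 981.1 (390.7 to 451.2) in CD45+ cells of tumor-bearing vehicle rats. In single cells (CPM), JAG1 was 47.73 in fibroblast-like cells of 1 SD TGFBRi rat (others 14.21 to 18.1). In whole glands of TGFBRi rats, HES1 was 258.5 in blood endothelium-like (others 75.92 to 127.3) and 253.2 in mural-like cells (104.3 to 127.5), NOTCH1 was 108.5 in luminal progenitor-like cells (63.07 to 76.9), and in mural-like cells NOTCH2 was 51.77 (37.19 to 41.87) and NOTCH3 334.2 (417.4 to 461.8).

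The effect of TGFBRi on NOTCH2 in adult basal cells differed between parous and virgin rats by 1.942 on the log2 scale, by the interaction term of the limma fit. The call was lost in several fits that left out a library, and with the gene-span index as a covariate (1.51, limma adjusted p = 0.34).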

How the results depend on the processing

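Of 65 member changes called, 32 were called under every alternative, and of the alternative values 527 kept the call, 95 lost it and 0 reversed. Counts of member calls moved as follows, given here without the share of all genes called in the same fits. With the rat as a replicate block, young ACI basal against luminal went from 3 to 5, NMU basal against luminal from 2 to 3 and the single-cell sorts from 15 to 16. With the gene-span index as a covariate, the counts were 6 for young ACI basal against luminal, 8 for TGFBRi in young ACI rats (0 without it), 1 for TGFBRi in adult rats (2), 0 for TGFBRi in NMU glands (2), 0 between TGFBRi groups of NMU glands (1), 0 for parity (3), 0 for the parity difference (1) and 4 for day 14 against day 0 (0). DESeq2 called 4 for young ACI basal against luminal (3), 2 for TGFBRi in young ACI rats, 3 for TGFBRi in NMU glands (2), 2 between TGFBRi groups of NMU glands, 5 for parity, 2 for the parity difference, 2 for NMU against young glands, 1 for E2 and 2 for day 14 against day 0. A fit on the 2 compared groups alone called 2 for TGFBRi in young ACI and 0 in adult rats. Without libraries of an index below -1, 1 was called for TGFBRi in young ACI rats and 1 for day 14 against day 0. With no filter on low values, 0 were called between TGFBRi groups of NMU glands. Whole sorted libraries called 5 of 40 other tests, made on sorts and not on classes. Library size alone called 16 of the 48 tests in sorted classes (10), and over sorted and whole-gland classes it moved the median of all genes by -0.42 to 0.25 on the log2 scale.

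Leaving out 1 library gave 1 to 3 calls for young ACI basal against luminal, 3 to 5 for young SD, 2 to 3 for NMU and 14 to 15 for the single-cell sorts. For TGFBRi it gave 0 to 1 in young ACI rats, 0 to 0 in young SD rats, 1 to 2 in adult rats, 0 to 4 in NMU glands, 0 to 3 between TGFBRi groups of NMU glands, 0 to 0 in tumors and 0 to 2 in the E2 experiment. It gave 3 to 5 for parity, 0 to 2 for the parity difference, 0 to 2 for NMU against young glands, 0 to 1 for E2, 0 to 0 for day 14 against day 0, 5 to 12 in sorted classes and 13 to 31 in whole-gland classes. The lowest counts came without the luminal library of LD3R (young ACI lineage), C6N (young SD lineage) and C2N or C2R (TGFBRi in NMU glands), SD1 or SD3 (sorted classes) and veh2 (whole gland). The highest came without basal D2N or luminal C5R (TGFBRi in NMU glands), basal D2N (between TGFBRi groups), basal D_N1N (parity and its difference), CD45+ A4-9 and A4-8 (E2 experiment), and veh4 (whole gland). With groups of 2 to 6 rats, small changes may have gone uncalled, and how small was not measured. Low members such as HEYL and HEY1 in single cells rested on few UMIs. Without 1 library, 18 bulk and 21 single-cell member changes were called that were not called with all of them. Why a count moved was not tested. Level ratios recomputed as CPM kept to within their spread for 23 of 27, with a largest difference of 0.8 on the log2 scale.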
